A study of Mus musculus with 150 samples.

Results

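The genes described here are the collagen genes, taken as every gene whose symbol in the array annotation is written as Col, a number, the letter a and a number, each of which encodes an alpha chain of a collagen. There were 42 of them among 17097 genes that had a probe set of their own, and each was followed by the probe set with the highest mean over all 150 arrays. Of the 42 genes, 38 passed a filter on dim genes, which asked for a level above the array's own 30th percentile in at least 3 arrays, and these were tested together with all 15695 genes that passed. Col9a2, Col10a1, Col6a5 and Col24a1 did not pass and were not tested. The level was above that filter in all 150 arrays for 25 of the 42 genes, and in fewer than 75 arrays for 10, of which 6 were tested.

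The arrays measured RNA of whole lungs from adult male mice that had breathed air (0 ppm) or 120 ppm styrene, the aromatic building block of polystyrene, for 26, 52, 78 or 104 weeks. WT mice were C57Bl/6 wild types (31 arrays), KO mice were C57Bl/6 with the genotype CYP2F2(-/-), which lack a lung cytochrome P450 (39 arrays), and TG mice carried the same knockout together with transgenes labelled 2F1, SA13 and 2B6 (38 arrays). CD-1 mice are an outbred stock (42 arrays). No label used here names the promoter or the cells that drive the transgenes. A group of one kind of mouse, dose and week held 2 to 10 mice, 1 array each, and no WT mice on air at 26 weeks were analysed here. The labels give no age beyond adult, so a week is a length of exposure, and mice exposed for longer were also older or entered the study at another age. The treatment label speaks of exposures of 1 or 4 weeks, which differs from the weeks given for each sample, and the sample's own week was used.

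Collagens are triple helices of 3 alpha chains that are secreted as precursors, trimmed and cross-linked outside the cell. In the lung, fibrils of types I, III and V give the airway walls, vessels and septa their tensile strength, the type IV network forms the sheet shared by alveolar epithelium and capillary endothelium, and type VI beaded filaments tie cells to the fibrils around them. Fibril-associated collagens decorate fibrils, types XV and XVIII lie next to basement membranes, and a small group spans the plasma membrane.

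Lung markers were high on every array: the lowest log2 level was 13.65 for Sftpc, a surfactant protein of type 2 cells, and 12.61 for Ager, a receptor of type 1 cells. Cyp2f2 lay between 12.95 and 13.53 in WT mice, between 11.69 and 12.55 in KO mice and between 11.80 and 12.40 in TG mice, so no KO or TG array reached the lowest WT array. In CD-1 mice, whose labels give no knockout, it lay between 12.07 and 13.54, with 1 array inside the KO range, although no label tells whether the probe set lies inside the deleted part. Well labels put 88 arrays on plate 1, 14 on plate 2, 22 on plate 3 and 22 on plate 4, with 4 not settled between plates 3 and 4. Plate 2 held 12 of the 13 styrene arrays of WT, TG and KO mice at 78 weeks and is a term of the model. All 104-week air arrays were on plate 3, and every styrene array of that week with a settled plate was on plate 4, so there dose and plate cannot be told apart. On plate 1 the 26-week arrays filled rows A to D and the 78-week arrays rows G and H, so week and place on the plate cannot be told apart either. A tumour label was given for 10 mice, all of them at 104 weeks and most of them CD-1 mice.

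Levels are log2 values after robust multi-array averaging and cannot be compared between probe sets, so each gene is compared with itself. Col4a2, Col4a1 and Col3a1 had the highest mean log2 levels among the collagen probe sets, 10.41, 10.35 and 10.25. Col1a2, the partner chain of type I collagen, was read by a dim probe set whose level stayed between 2.52 and 3.89 on every array. Col15a1, a multiplexin of vessel basement membranes, stayed between 3.47 and 4.63. In RNA of a whole lung, fewer cells of a type and less RNA per cell cannot be told apart.

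In lungs of mice on air, the fibrillar collagens Col3a1, Col5a2, Col1a1 and Col5a1 and the fibril-associated Col16a1 were lower at 78 weeks than at 26 weeks, while Col8a1 and Col4a3 were higher. The comparison took the mean over KO, TG and CD-1 mice (14 mice at each week). Of the 38 collagen genes 15 passed limma's test at an adjusted p under 0.05, 2 of them higher and 13 lower. Among all genes tested 52.7% were called, 20.8% higher and 31.9% lower, so the share of collagen genes called, 39.5%, was not above that of genes in general. The median log2 difference of the 38 was -0.13, against -0.07 over all genes. With every array centred on its own median, which shifts the log2 differences of all genes by -0.08, 2 collagen genes were higher and 25 lower, and the share of higher genes among all calls went from 39.5% to 25.4%.

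Col3a1 encodes the chain of type III collagen, the fibril of distensible tissues. In KO mice on air its log2 levels at 26 weeks were 10.62, 10.64, 10.65, 10.66 and 10.66, and at 78 weeks 9.82, 10.09, 10.23 and 10.39. In CD-1 mice they were 10.96, 10.98, 11.10, 11.11 and 11.44 at 26 weeks, and 10.38, 10.40, 10.41, 10.48 and 10.50 at 78 weeks. In TG mice they were 10.64, 10.68, 10.74 and 10.97, then 10.09, 10.24, 10.28, 10.37 and 10.48. All 14 mice at 78 weeks lay below all 14 at 26 weeks, whatever their strain. The log2 difference was -0.55 (SE 0.09, limma adjusted p = 6.57e-08), a 1.47-fold lower level. At 52 weeks Col3a1 was already lower than at 26 weeks, by a log2 difference of -0.43 (SE 0.09, limma adjusted p = 0.00229), and it was 1 of 2 collagen genes called there, where 2.39% of all genes were (with centred arrays 4 were called, all lower). A dimmer second probe set of Col3a1, with a mean log2 level of 6.11, gave 0.10 ± 0.13 (SE) between 26 and 78 weeks, so the lower level was seen in the brighter set alone.

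Col1a1, the major chain of type I collagen, had log2 levels of 5.38, 5.48, 5.53, 5.69 and 5.73 in KO mice on air at 26 weeks and of 4.75, 4.90, 5.05 and 5.17 at 78 weeks. In TG mice the values were 5.42, 5.67, 5.73 and 5.90, then 4.77, 5.10, 5.20, 5.55 and 5.60, and in CD-1 mice 5.42, 5.59, 5.66, 5.69 and 5.73, then 4.76, 5.19, 5.30, 5.42 and 5.59. Each of the 14 mice at 78 weeks lay below the 26-week mean of its own strain, the KO groups did not overlap, and the TG and CD-1 groups did. The log2 difference was -0.47 (SE 0.10, limma adjusted p = 2.67e-05). Col1a1 was also lower at 52 weeks, by -0.33 (SE 0.10, limma adjusted p = 0.0468), a call that was lost when any of 17 of the 28 mice was left out. Its single probe set leaves no second reading.

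Col5a2, which with Col5a1 builds type V collagen at the core of type I fibrils, stood at 8.18, 8.22, 8.30, 8.34 and 8.39 in KO mice on air at 26 weeks and at 7.67, 7.75, 7.84 and 8.01 at 78 weeks. In TG mice it stood at 8.43, 8.49, 8.52 and 8.63, then at 7.65, 7.74, 7.83, 7.95 and 8.07. Neither pair of groups overlapped. The log2 difference over the 3 kinds of mice was -0.48 (SE 0.07, limma adjusted p = 1.75e-08), but a dimmer probe set of Col5a2 went the other way, by 0.43 ± 0.11 (SE), and the mean of both was -0.02 and not called. Col5a1 was lower by -0.35 (SE 0.09, limma adjusted p = 0.000621), and its other probe sets gave -0.42 and -0.28. In KO mice on air Col5a1 ran from 6.80 to 7.33 at 26 weeks and from 6.30 to 6.75 at 78 weeks, with no overlap. All 10 tested fibril-forming genes had a negative log2 difference, and 5 of them, with Col2a1 of cartilage fibrils (-0.25, limma adjusted p = 0.00638), were called. Over all genes 52.7% were called in this comparison. Col2a1 was above the filter level in 79 of 150 arrays, so its level is close to background.

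Of the 8 fibril-associated genes tested, 5 fell and none rose, where 52.7% of all genes were called and 31.9% were lower. Col16a1, found on small fibrils and near basement membranes, had log2 levels of 5.87, 5.99, 6.11 and 6.34 in TG mice on air at 26 weeks and of 5.09, 5.48, 5.52, 5.62 and 5.66 at 78 weeks, without overlap. Its log2 difference over the 3 kinds of mice was -0.47 (SE 0.09, limma adjusted p = 7.32e-06), from the only probe set. The others were Col14a1, which binds decorin on fibrils (-0.29, adjusted p = 0.0218), Col20a1 (-0.21, adjusted p = 0.0279), and Col9a1 and Col9a3 of cartilage type IX collagen (-0.19 and -0.17, adjusted p = 0.0108 and 0.0134, all by limma). Col9a1 was above the filter level in 63 of 150 arrays, so its level is close to background.

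Col8a1, a short-chain collagen that vessel walls and mesenchymal cells make into hexagonal lattices, was higher with time. On air its levels were 4.91, 5.01, 5.02, 5.10 and 5.31 in KO mice at 26 weeks and 5.14, 5.90, 6.11 and 6.33 at 78 weeks. In CD-1 mice they were 4.98, 5.12, 5.36, 5.40 and 5.46, then 5.83, 5.86, 6.46, 6.53 and 6.59, with no overlap. In TG mice they were 5.21, 5.22, 5.24 and 5.69, then 5.43, 5.82, 6.01, 6.29 and 6.71. The TG and KO groups each overlapped by 1 mouse, and all 14 mice at 78 weeks lay above the 26-week mean of their strain. The log2 difference was 0.83 (SE 0.12, limma adjusted p = 5.55e-09), a 1.78-fold higher level. The other probe sets of Col8a1 gave -0.17 ± 0.11 and 0.06 ± 0.07 (SE), so here too the change was seen in 1 probe set.

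Among the 6 type IV genes, Col4a3 rose and Col4a2 fell. Col4a3, Col4a4 and Col4a5 form the mature network of alveolar and kidney basement membranes. Col4a3 stood at 8.29, 8.37, 8.70, 8.84 and 8.95 in KO mice on air at 26 weeks and at 8.91, 9.50, 9.54 and 9.58 at 78 weeks. In CD-1 mice it stood at 8.44, 8.59, 8.60, 8.76 and 8.92, then at 9.11, 9.19, 9.31, 9.37 and 9.52. The CD-1 groups did not overlap, the KO groups did by 1 mouse, and 13 of the 14 mice at 78 weeks lay above the 26-week mean of their strain. The log2 difference was 0.53 (SE 0.13, limma adjusted p = 0.000516), a 1.44-fold higher level, and a second probe set gave 0.41 ± 0.17 (SE). Col4a2, a chain of the network found in all basement membranes, was lower by -0.18 (SE 0.06, limma adjusted p = 0.0144). Of the other classes Col6a1 (-0.25, SE 0.07, limma adjusted p = 0.00249) and the transmembrane Col25a1 (-0.22, limma adjusted p = 0.00399) fell, and neither multiplexin was called.

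**Figure D1:**
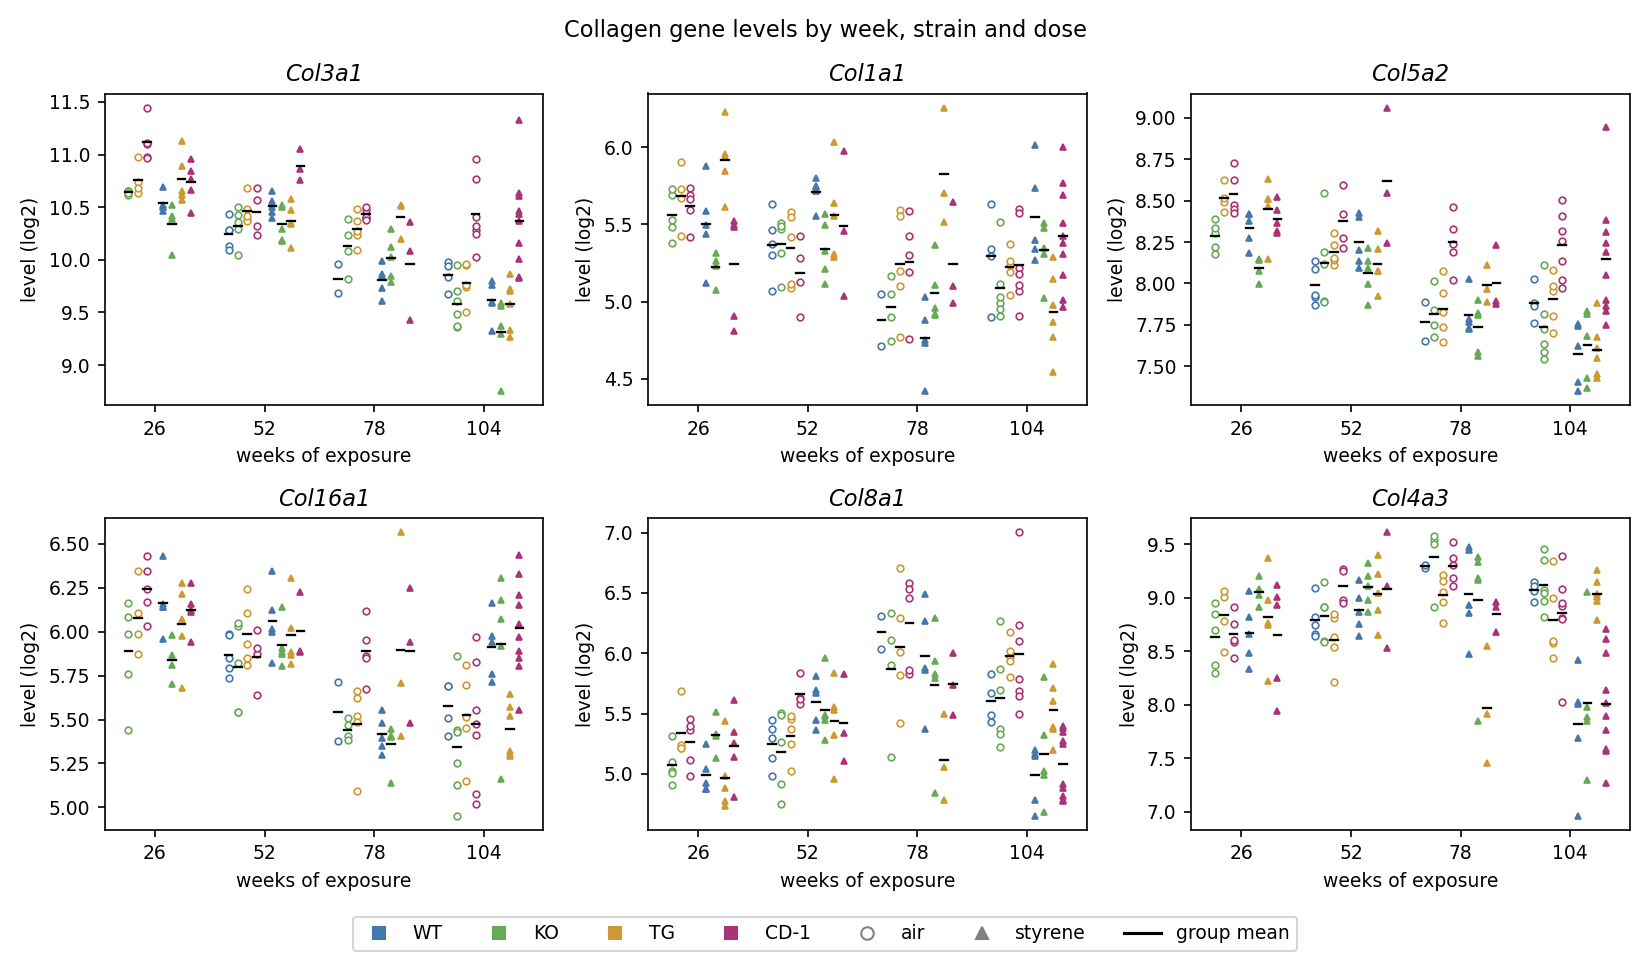
Log2 level of 6 collagen genes (vertical axes) by weeks of exposure (horizontal axes), with 1 point per mouse, circles for air, triangles for styrene, colours for the 4 kinds of mice and bars for group means. On air, Col3a1 lies at 10.62 and above in all mice at 26 weeks and at 10.50 and below in all KO, TG and CD-1 mice at 78 weeks, while Col8a1 and Col4a3 lie higher at 78 weeks.

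Strain by strain, 7 collagen genes were called in KO mice between 26 and 78 weeks on air (20.5% of all genes were), 4 in TG mice (18.3%) and 4 in CD-1 mice (25.3%). Col3a1 and Col8a1 were called in each. The log2 difference of Col3a1 was -0.51 in KO, -0.47 in TG and -0.69 in CD-1 mice, and that of Col8a1 was 0.80, 0.71 and 0.99. Groups of KO, TG and CD-1 mice at these weeks did not overlap for 17.5%, 21.5% and 17.6% of all genes. The KO calls also held Col1a1 (-0.59) and Col5a1 (-0.46), the TG calls Col5a2 (-0.67) and Col16a1 (-0.60), and the CD-1 calls Col1a2 (-0.33). With centred arrays the splits of higher and lower genes were 2 and 8 in KO, 1 and 8 in TG and 2 and 16 in CD-1 mice. The count fell from 7 to 1 without KO air 78w replicate 4, and from 4 to 2 without CD-1 air 26w replicate 5 or CD-1 air 78w replicate 5, while it was 7 without CD-1 air 78w replicate 2. A test of the difference between CD-1 and the mean of KO and TG mice called no collagen gene by limma, with 1 at an unadjusted p under 0.05, and 0.0191% of all genes.

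Of 18 genes that fold, modify or export collagen chains in the endoplasmic reticulum, 12 fell over the same interval on air and none rose, where 52.7% of all genes were called and 31.9% were lower, with a median log2 difference of -0.24. Serpinh1, the collagen chaperone HSP47, fell by 1.17 on the log2 scale (SE 0.12, limma adjusted p = 3.45e-15), the prolyl hydroxylase P4ha2 by 0.71 and the lysyl hydroxylase Plod1 by 0.87. Of 12 genes that process and cross-link procollagen, 5 fell and none rose, among them Pcolce, which speeds removal of the C-terminal propeptide (-0.49), and the cross-linking oxidases Loxl1 (-0.35) and Loxl2 (-0.26). Tll2, also among the 5, was above the filter level in 5 of 150 arrays, so its level is close to background. The share called was 41.7% in that list, and 52.9%, 68.8% and 60% in those of degradation, the TGF-beta signal and receptors, against 52.7% of all genes. Of 17 genes of collagen degradation 3 rose, with the neutrophil collagenase Mmp8 at 1.15, and 6 fell, with the stromelysin Mmp3 at -1.44, the protease inhibitor Timp1 at -1.01 and the gelatinase Mmp2 at -0.53. Mmp13, also among the genes called, was above the filter level in 28 of 150 arrays, so its level is close to background. Of 16 genes of the TGF-beta signal and its early targets 8 rose and 3 fell, with the receptor Tgfbr2 at 0.36 and the ligand Tgfb3 at -0.55. Of 10 collagen receptors 4 rose and 2 fell, with the kinase Ddr1 at -0.41 and the integrin chain Itgb1 at 0.28.

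The shares of cell type markers called over that interval ran from 0% (heart muscle) to 80% (cartilage and adipose), against 52.7% of all genes, with 57.1% of fibroblast, 75% of smooth muscle and 42.9% of mesothelial markers, and their part in the collagen differences was not tested. Of 14 fibroblast markers 6 fell and 2 rose, with Mfap5 of adventitial fibroblasts at -0.94 and Meox2 at 0.79, but their summed log2 level lay between 14.20 and 14.66 on air at 26 weeks and between 14.27 and 14.63 at 78 weeks. Summed levels here cover 14 mice at 26 weeks and 16 at 78 weeks, of which 2 were WT mice outside the tested comparison. Pi16, among the fibroblast markers called, was above the filter level in 3 of 150 arrays, so its level is close to background. Of 8 smooth muscle and myofibroblast markers 5 fell and 1 rose (Cnn1 -0.90, Acta2 -0.41), with summed levels from 11.43 to 12.21 and then from 11.18 to 12.27. Of 10 cartilage markers 8 fell and none rose (Cytl1 -0.84, Chad -0.63), with summed levels from 9.76 to 11.50 and then from 9.20 to 10.28. Among those that fell, Matn3, Sox9, Comp, Scrg1 and Snorc were above the filter level in 45, 16, 50, 76 and 94 of 150 arrays, so their levels are close to background. Of 7 mesothelial markers 3 fell and none rose. Of 5 adipose markers 3 fell and 1 rose, with a median of -0.66 and summed levels from 9.86 to 12.26 and then from 10.31 to 11.18, and of 10 endothelial markers 3 rose and 1 fell. No heart muscle marker was called, and of 6 B cell and plasma cell markers 4 rose.

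Arrays of the same group differed along 1 main axis, computed without the collagens from how 15657 genes strayed from their group means (the leading principal component), which held 21.1% of that variance. On air its median was 1.43, -0.94 and -6.67 in KO, TG and CD-1 mice at 26 weeks, and 34.9, 27.3 and 19.01 at 78 weeks. With each array's place on this axis as a covariate, added after the data were seen, 8 collagen genes were called, 2 higher and 6 lower, against 36.8% of all genes. Col3a1 (-0.49), Col5a2 (-0.51), Col1a1 (-0.31), Col16a1 (-0.23) and Col8a1 (0.48) were among them, whereas Col4a3 came to 0.04 (limma adjusted p = 0.753) and Col5a1 to -0.17 (limma adjusted p = 0.120).

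The sequences upstream of 4 of these genes are shown because the genes moved together or apart with time and RefSeq gives their start sites. Each line is the 120 bases before the annotated start on build GRCm38.p6, written in the direction of the gene, with capitals at a match on either strand to TATAAA (the TATA box letters), to GGGCGG (the GC box letters) or to CCAAT (the CCAAT box letters).

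Col3a1: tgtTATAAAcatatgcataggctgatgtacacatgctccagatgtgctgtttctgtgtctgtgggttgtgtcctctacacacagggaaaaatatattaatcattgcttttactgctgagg
Col5a1: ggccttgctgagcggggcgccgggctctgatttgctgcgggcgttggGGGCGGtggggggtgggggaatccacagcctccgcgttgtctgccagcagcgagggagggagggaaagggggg
Col16a1: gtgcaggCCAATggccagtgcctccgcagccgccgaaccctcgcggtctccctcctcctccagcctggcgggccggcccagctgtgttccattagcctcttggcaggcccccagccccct
Col8a1: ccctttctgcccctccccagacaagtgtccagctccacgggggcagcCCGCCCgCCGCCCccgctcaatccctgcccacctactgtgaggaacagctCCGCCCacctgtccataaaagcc

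These windows lie at chr1:45311418-45311537 (Col3a1, plus strand), chr2:27886305-27886424 (Col5a1, plus strand), chr4:130047720-130047839 (Col16a1, plus strand) and chr16:57754738-57754857 (Col8a1, minus strand). Col3a1 held the TATAAA letters, Col5a1 1 GGGCGG match, Col16a1 1 CCAAT match and Col8a1 3 matches on the other strand (CCGCCC), so the 3 genes that fell had no match in common. The letters TATAAA, searched on both strands, were found in 3 of 36 collagen windows (8.33%) and in 6.34% of 32851 windows of all genes, the letters GGGCGG in 17 of 36 (47.2%) against 26.5%, and the letters CCAAT in 6 of 36 (16.7%) against 21.3%. Of the 42 collagen genes 33 had an entry. The start sites of Col4a1 and Col4a2 were 21 bases apart on opposite strands, so that their windows, which also hold 50 bases after the start, shared 78 bases.

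From 52 to 78 weeks on air, with WT mice included (19 and 16 mice), 14 collagen genes were called, 2 higher and 12 lower, where 41.1% of all genes were called. Col8a1 (0.71) and Col4a3 (0.39) were again higher, and Col16a1 (-0.29), Col5a2 (-0.24), Col1a1 (-0.23) and Col3a1 (-0.20) lower. The mean of all probe sets turned Col3a1 (0.049) and Col5a2 (0.20) the other way, and leaving out 1 of 35 mice lost the call of Col3a1 in 10 fits, of Col1a1 in 9 and of Col4a1 in 17. Col4a1 (-0.13) and Col15a1 (-0.18, limma adjusted p = 0.0284) were among the other calls. With centred arrays 2 were higher and 20 lower, and without WT air 78w replicate 1 the count was 8. From 78 to 104 weeks on air (16 and 22 mice), where the plate changed with the week, 6 were called, 1 higher and 5 lower, against 29.7% of all genes. With centred arrays 6 were higher and 3 lower, and the share of higher genes among all calls went from 43.1% to 73%.

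Col4a5, the X-linked partner of Col4a3 and Col4a4, was the collagen gene with the smallest p from 78 to 104 weeks. Its log2 levels on air ran from 8.73 to 9.26 with a median of 8.93 at 78 weeks, and from 7.07 to 8.75 with a median of 8.49 at 104 weeks. The ranges overlapped by little, and all 22 mice at 104 weeks lay below the 78-week mean of their kind. The log2 difference was -0.54 (SE 0.08, limma adjusted p = 6.50e-09), and a second probe set gave -0.37. Col4a4 (-0.37), Col6a3 (-0.30), Col8a1 (-0.29) and Col3a1 (-0.26) were lower as well. Of 7 other probe sets of these genes, 3 had the same sign and 4 the opposite one. The call of Col8a1 was lost in 11 of 25 fits that left out 1 mouse each, and that of Col3a1 in 1.

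In mice on styrene, Col4a1 rose from 26 to 52 weeks. This chain and Col4a2 form the basement membrane network found in every tissue. The Col4a1 levels were 10.15, 10.17, 10.20, 10.22 and 10.28 in WT mice at 26 weeks and 10.56, 10.68, 10.69, 10.69 and 10.78 at 52 weeks. In KO mice they were 10.05, 10.15, 10.29 and 10.30, then 10.50, 10.54, 10.62, 10.65 and 10.76, and in CD-1 mice 10.14, 10.15, 10.18, 10.23 and 10.25, then 10.58, 10.66 and 10.72. These 3 pairs of groups did not overlap, while TG mice, from 10.26 to 10.57 and then from 10.52 to 10.91, did. The share of all genes whose groups did not overlap was not counted for these pairs. The log2 difference over the 4 kinds was 0.40 (SE 0.05, limma adjusted p = 6.93e-09), all 18 mice lay above the 26-week mean of their kind, and a second probe set gave 0.25 ± 0.06 (SE). In all 7 collagen genes were called, 5 higher and 2 lower, where 27.6% of all genes were called. With centred arrays the split was 5 to 8, and that of all calls went from 38% higher to 20.6%.

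The other genes higher at 52 weeks of styrene were Col8a1 (0.35, limma adjusted p = 0.00794), Col4a4 (0.26, limma adjusted p = 0.0122), Col18a1, the source of endostatin (0.25, limma adjusted p = 0.00743), and the dim Col1a2 (0.23, limma adjusted p = 0.00485). Between 26 and 52 weeks of styrene, where 27.6% of all genes were called, 6 of 7 mesothelial markers fell (Msln -1.15, Upk3b -0.98). Their summed level ran from 11.65 to 12.48 at 26 weeks and from 11.13 to 12.10 at 52 weeks. In the same interval 7 of 16 genes of the TGF-beta signal rose and none fell (Ltbp2 0.39), 5 of 14 fibroblast markers fell and 1 rose, and 2 of 8 smooth muscle markers rose. The part of these cells in the collagen differences was not tested.

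From 26 to 78 weeks of styrene (19 and 16 mice) 8 collagen genes were called, 2 higher and 6 lower, where 24.3% of all genes were called. Col5a2 (-0.49, limma adjusted p = 0.000197), Col3a1 (-0.59, limma adjusted p = 0.000252), Col16a1 (-0.40, limma adjusted p = 0.0156) and Col5a1 (-0.37, limma adjusted p = 0.0284) were lower, and Col8a1 (0.73, limma adjusted p = 0.00105) and Col18a1 (0.32, limma adjusted p = 0.036) higher. The dimmer sets of Col5a2 and Col3a1 gave 0.51 and 0.23. With centred arrays, which shift all log2 differences here by -0.14, 1 was higher and 17 lower, and the share of higher genes among all calls went from 52.1% to 17.6%. Plate 2 held most styrene arrays of WT, TG and KO mice at 78 weeks, so these values rest on the plate 2 term. The number called fell to 3 when CD-1 styrene 26w replicate 2 was left out, a plate 2 array among the few that set this term. Without the term more collagen genes were called, as given below.

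**Figure D2:**
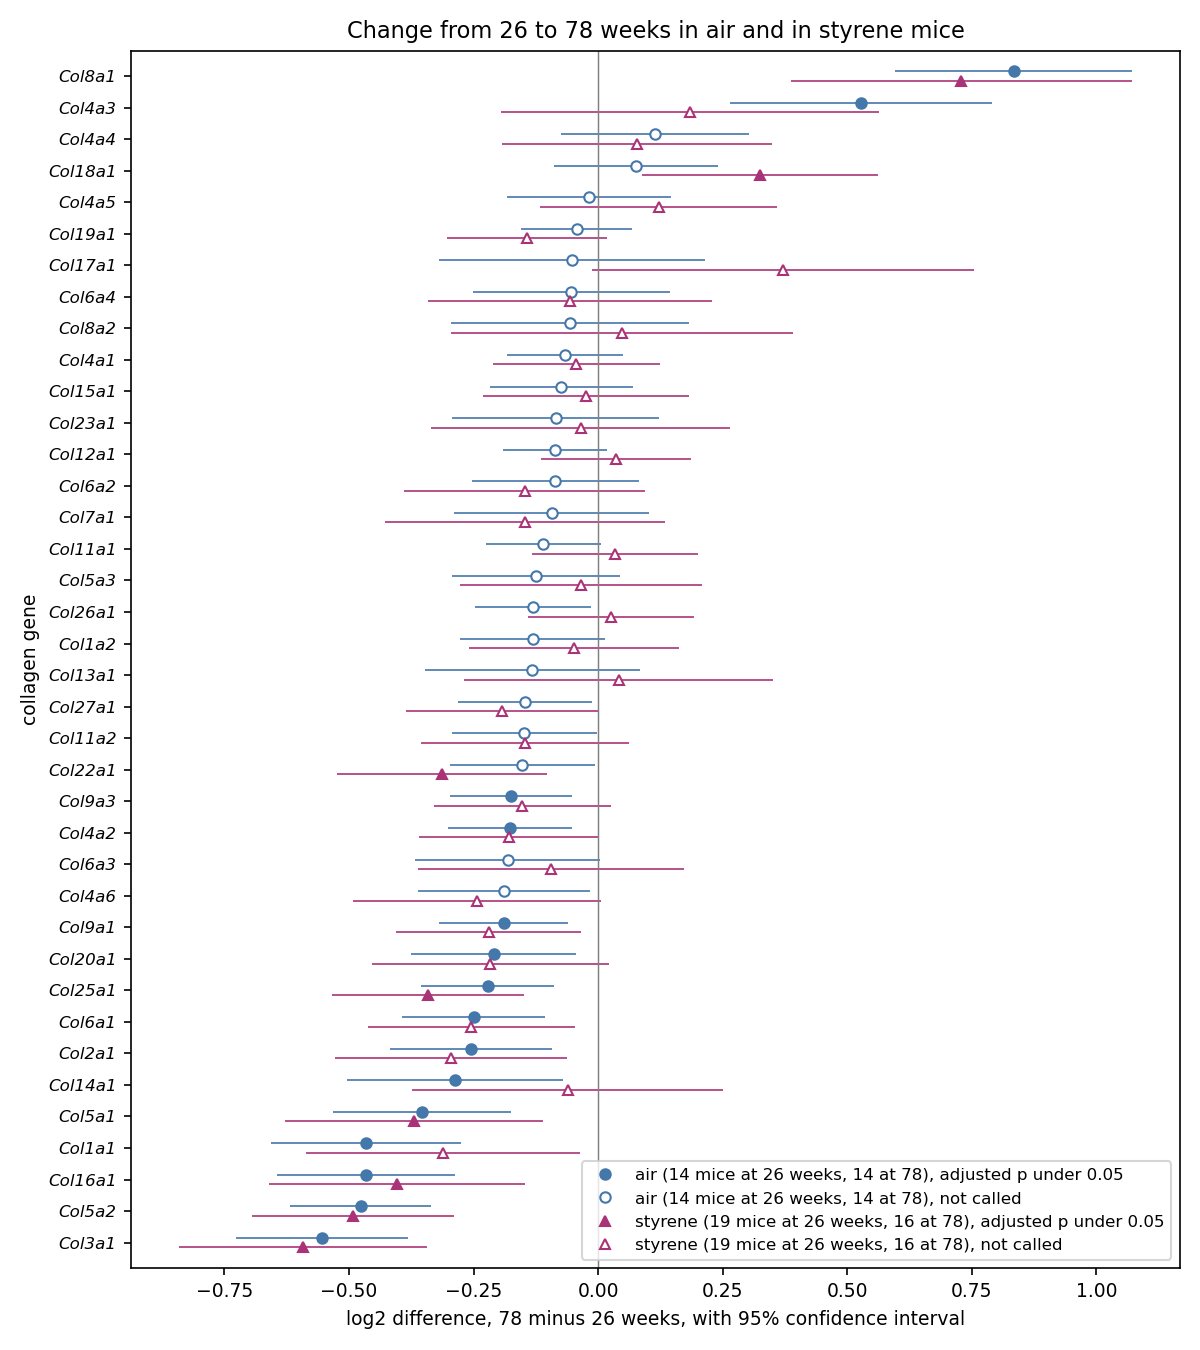
Log2 difference between 78 and 26 weeks (horizontal axis) of the 38 tested collagen genes (vertical axis), as circles for mice on air and triangles for mice on styrene, filled where the adjusted p was under 0.05, with 95% confidence intervals. Col3a1 (-0.55 and -0.59), Col5a2 (-0.48 and -0.49) and Col16a1 (-0.47 and -0.40) lie at the low end and Col8a1 (0.83 and 0.73) at the high end in both.

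Styrene itself was compared with air within each kind of mouse and week, and up to 78 weeks 1 collagen gene was called, Col6a1 in WT mice at 52 weeks, where 0.401% of all genes were called. At an unadjusted p under 0.05 by limma that comparison held 13 of the 38 collagen genes and 1657 of all genes. Col6a1 is a chain of type VI collagen. Its log2 levels were 8.60, 8.66, 8.70, 8.77 and 8.85 on air and 9.09, 9.16, 9.20, 9.23 and 9.26 on styrene. The groups did not overlap, which held for 4.79% of all genes, and the log2 difference was 0.47 (SE 0.12, limma adjusted p = 0.0438). The call was lost when any 1 of the 10 mice was left out, with adjusted p up to 0.152 and differences between 0.44 and 0.50, and also without the plate term. In KO mice at 52 weeks the levels overlapped, at 8.74, 8.83, 8.84, 8.84 and 8.98 on air and 8.83, 8.93, 8.98, 9.00 and 9.14 on styrene, and the test of WT minus KO styrene effects called no collagen gene by limma (2 at an unadjusted p under 0.05). In WT mice at 52 weeks the summed level of heart muscle markers ran from 10.73 to 11.40 on air and from 11.32 to 12.97 on styrene, with none called by limma, and its part was not tested.

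No collagen gene was called by limma in the other 10 comparisons up to 78 weeks. In KO and TG mice at 78 weeks this rests on the plate 2 term, without which collagen genes were called in TG mice, as given below. At an unadjusted p under 0.05 they held 3, 2 and 5 collagen genes in KO, TG and CD-1 mice at 26 weeks (363, 366 and 1125 of all genes), 0, 2 and 2 at 52 weeks (767, 1925 and 792), and 1, 1, 2 and 5 in WT, KO, TG and CD-1 mice at 78 weeks (453, 553, 3279 and 1524). Of all genes 0%, 0% and 0.65% were called at 26 weeks, 0.0127%, 0.0127% and 0.0701% at 52 weeks and 0.00637%, 0%, 0.191% and 0.121% at 78 weeks, in the same order. Averaged over the weeks up to 78, no collagen gene was called by limma in any of the 4 kinds of mice, with 1, 1, 10 and 6 at an unadjusted p under 0.05 in WT, KO, TG and CD-1 mice and 0.0382%, 0%, 0% and 0.835% of all genes called. The difference in styrene effect, here with 104 weeks included, called no collagen gene by limma between WT and KO, TG and KO, or CD-1 and WT mice (2, 2 and 6 at an unadjusted p under 0.05, with 0.0892%, 0% and 0.0701% of all genes called).

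At 104 weeks, where dose and plate cannot be told apart, 12 collagen genes were called between styrene and air in WT mice (8 higher, 4 lower, where 48% of all genes were called, 29.6% higher and 18.3% lower), 11 in KO mice (8 higher, 3 lower, against 39.4%, 23.9% and 15.4%) and 19 in CD-1 mice (15 higher, 4 lower, against 63.6%, 42.8% and 20.7%). The collagen shares, 31.6%, 28.9% and 50%, were below those of all genes. In TG mice none was called by limma (5 collagen genes and 980 of all genes at an unadjusted p under 0.05, 0% of all genes called). Lower Col4a3, Col4a4 and Col8a1 and higher Col6a1, Col6a2 and Col4a2 were called in WT, KO and CD-1 mice alike. The KO count was 6, 5 and 6 without KO styrene 104w replicate 1, 3 and 4. In CD-1 mice the tumour label was given for styrene 104w replicates 2, 4, 5, 6 and 9 and for air 104w replicates 3 and 5. Without tumour-labelled mice fewer collagen genes were called in CD-1 mice, as given below, and the part of tumours was not tested.

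Col4a3 at 104 weeks had log2 levels of 8.96, 9.06, 9.11 and 9.15 in WT mice on air and of 6.96, 7.69, 8.00, 8.03 and 8.42 on styrene. In KO mice on styrene they were 7.29, 7.85, 7.88, 7.98 and 9.06, against a range from 8.82 to 9.45 with a median of 9.06 on air. In CD-1 mice they ran from 8.02 to 9.39 (median 8.92) on air and from 7.27 to 8.71 (median 7.96) on styrene. The WT groups did not overlap, which held for 37.4% of all genes, and the KO and CD-1 groups did. The log2 differences were -1.25 (SE 0.24, limma adjusted p = 9.50e-06) in WT mice, -1.11 (limma adjusted p = 6.29e-05) in KO mice and -0.85 (limma adjusted p = 1.15e-05) in CD-1 mice, and a second probe set gave -1.48, -1.44 and -0.94. In TG mice Col4a3 stood at 8.44, 8.58, 8.60, 9.00 and 9.35 on air and between 8.79 and 9.26 on styrene, which overlapped. Col4a4 was lower in the same 3 kinds by -0.80, -0.38 and -0.36, but its second probe set gave 0.09, 0.02 and 0.25.

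Col6a1 at 104 weeks stood at 8.70, 8.74, 8.75 and 8.88 in WT mice on air and at 9.24, 9.29, 9.41, 9.45 and 9.48 on styrene, without overlap. In CD-1 mice it ran from 8.05 to 8.81 on air and from 8.61 to 9.61 on styrene. The log2 differences were 0.60 in WT, 0.40 in KO and 0.60 in CD-1 mice (limma adjusted p = 3.17e-08 in the last), and in TG mice the values overlapped, from 8.65 to 8.89 on air and from 8.75 to 8.94 on styrene. Col6a2, which joins Col6a1 in the type VI trimer, was higher by 0.45, 0.38 and 0.41, and its second probe set gave 0.59, 0.48 and 0.46. Col4a2 was higher by 0.33, 0.37 and 0.42. Col8a1 ran from 5.50 to 7.00 in CD-1 mice on air and from 4.78 to 5.39 on styrene, without overlap (as for 5.74% of all genes), a log2 difference of -0.91 (limma adjusted p = 3.01e-07), and was lower by -0.61 in WT and -0.46 in KO mice. Its other probe sets lay between -0.29 and 0.34 in these mice.

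**Figure D3:**
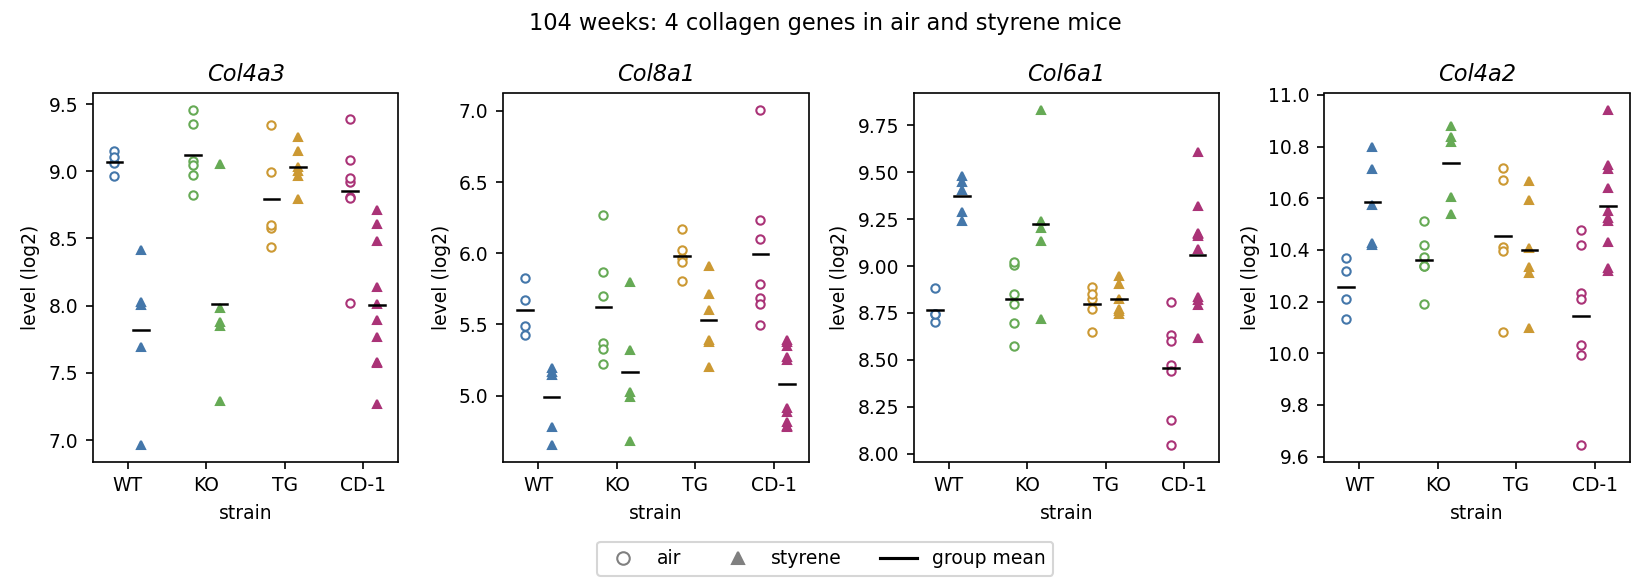
Log2 level (vertical axes) of Col4a3, Col8a1, Col6a1 and Col4a2 at 104 weeks in the 4 kinds of mice (horizontal axes), with 1 point per mouse, circles for air, triangles for styrene and bars for group means. Styrene points lie lower for Col4a3 (-1.25, -1.11 and -0.85) and higher for Col6a1 (0.60, 0.40 and 0.60) in WT, KO and CD-1 mice, and the 2 doses overlap in TG mice.

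In CD-1 mice at 104 weeks the collagen genes called higher also held the hexagonal Col8a2 (0.67), the transmembrane Col23a1 (0.61), Col13a1 (0.46) and Col25a1 (0.33), the fibril-associated Col16a1 (0.55) and the multiplexin Col15a1 (0.27). In the same CD-1 comparison, where 63.6% of all genes were called, 14 of the 18 folding genes rose and 2 fell (P4hb 0.41, P3h4 0.83), against 6 and 2 in WT, 9 and 2 in KO and none in TG mice. Of 7 mesothelial markers 4 rose and 1 fell (Krt19 0.78, Msln 0.98), with summed levels from 9.99 to 11.50 on air and from 11.56 to 12.24 on styrene, and 3 of 8 smooth muscle markers fell and 2 rose. The part of these cells was not tested. A test of the TG styrene effect minus the mean of the other 3, added after the data were seen, called 17 collagen genes, 2 higher and 15 lower, where 46.8% of all genes were called. With each array's place on the within-group axis as a covariate it called 2, and 1.62% of all genes.

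The axis of differences between arrays of a group moved with these calls, and its part was not tested. At 104 weeks its medians on styrene were -43.6 in WT, -34.4 in KO and -39.9 in CD-1 mice but 13.5 in TG mice, of whose 6 styrene arrays at least 4 lay on plate 4. On air they were 14.5, 12.0, 22.5 and 12.0 in WT, KO, CD-1 and TG mice. With the place on the axis as a covariate 0, 0 and 3 collagen genes were called in WT, KO and CD-1 mice by limma (1.22%, 0% and 16.1% of all genes). With a term for plate 4 and the 4 open arrays placed either way, 0 or 1, 0 and 0 or 3 were called. That term can be estimated only within the group whose open arrays were placed on plate 3, so these counts cannot tell plate from dose.

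Across all 150 arrays, deviations from the group mean followed this axis for some collagen genes and not for others. Pearson's r was 0.781 for Col4a3 (Spearman's rho 0.748), 0.642 for Col8a1 (rho 0.607) and 0.51 for Col4a4 (rho 0.491). It was -0.582 for Col6a1 (rho -0.502), -0.558 for Col6a2 (rho -0.472) and -0.54 for Col16a1 (rho -0.473). It was -0.154 for Col3a1, 0.0923 for Col5a2 and 0.0329 for Col15a1. Chains that share a trimer moved together among mice of a group, with r of 0.785 between Col6a1 and Col6a2 (rho 0.699), 0.768 between Col4a1 and Col4a2 (rho 0.736) and 0.638 between Col4a3 and Col4a4 (rho 0.514), whereas Col5a1 and Col5a2 gave 0.035 (rho 0.127). Col3a1 and Col1a1, chains of different trimers, gave 0.603 (rho 0.573). These are descriptions over arrays that share plates and the same normalization.

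**Figure D4:**
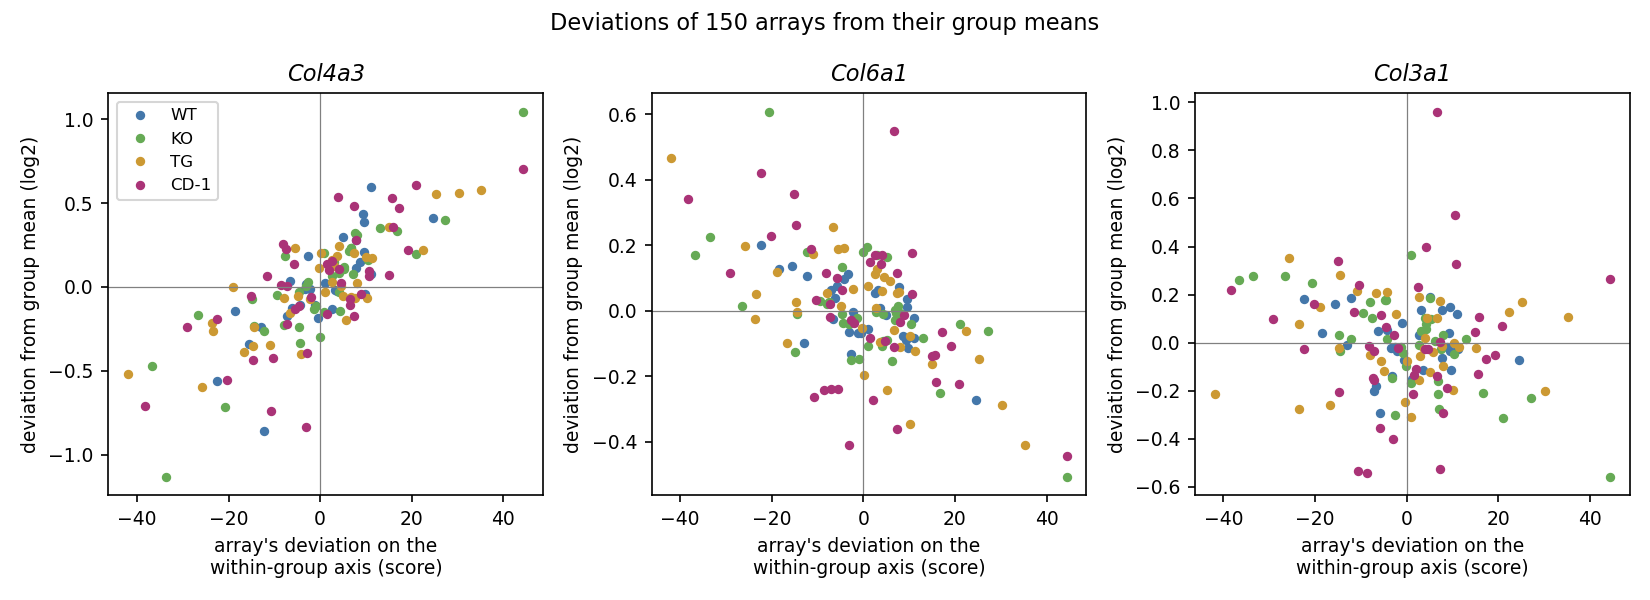
Deviation of the log2 level from the group mean (vertical axes) of Col4a3, Col6a1 and Col3a1 against the deviation of the array on the within-group axis (horizontal axes, score without unit), with 1 point for each of 150 arrays and colours for the 4 kinds of mice. Col4a3 goes up along the axis (r = 0.781), Col6a1 goes down (r = -0.582) and Col3a1 shows little relation (r = -0.154).

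Between the kinds of mice, CD-1 and WT differed and the C57Bl/6 genotypes hardly did. On air, with weeks 52, 78 and 104 weighted equally (16 CD-1 and 11 WT mice), 10 collagen genes were called, 7 with a higher level and 3 with a lower one in CD-1 mice, where 17.4% of all genes were called. CD-1 mice can carry sequence variants under a probe, which change a level without a change in RNA, and this was not tested.

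Col3a1 in mice on air at 52 weeks stood at 10.24, 10.32, 10.56 and 10.68 in CD-1 mice and at 10.10, 10.13, 10.28, 10.29 and 10.44 in WT mice, which overlapped, whereas at 78 weeks 10.38, 10.40, 10.41, 10.48 and 10.50 lay above 9.68 and 9.96. The log2 difference over the weeks was 0.46 (SE 0.10, limma adjusted p = 0.000112), and a second probe set gave 0.83. Col5a2 stood at 8.21, 8.27, 8.42 and 8.60 in CD-1 mice and at 7.87, 7.92, 7.93, 8.09 and 8.14 in WT mice at 52 weeks, without overlap. Its log2 difference was 0.40 (SE 0.08, limma adjusted p = 3.77e-05), with 0.82 from the second probe set. For CD-1 against WT mice of a single week, the share of all genes without overlap was not counted. Of the 16 CD-1 mice, 15 lay above the WT mean of their week for Col3a1 and 16 for Col5a2. Col6a3 (0.39, limma adjusted p = 0.00323), Col18a1 (0.34, limma adjusted p = 0.00393, and 0.49 in a second set), Col5a1 (0.28, limma adjusted p = 0.0347) and the dim Col20a1 and Col6a4 (0.45 and 0.44) were higher too.

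Col8a2, the partner chain of Col8a1 in the corneal and vascular lattice, was lower in CD-1 mice. At 52 weeks on air it stood at 6.88, 6.91, 7.18 and 7.47 in CD-1 mice and at 7.50, 7.53, 7.65, 7.79 and 7.89 in WT mice, and at 78 weeks at 6.51, 6.65, 6.71, 6.91 and 7.03 against 7.30 and 7.35, without overlap at either week. The log2 difference was -0.61 (SE 0.13, limma adjusted p = 0.000185), and all 16 CD-1 mice lay below the WT mean of their week. How many of all genes were without overlap at these weeks was not counted. Col23a1 (-0.36, limma adjusted p = 0.0179) and Col6a1 (-0.24, limma adjusted p = 0.027) were lower as well, and the latter was not called without the mice labelled with a tumour (-0.18).

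On styrene, over all 4 weeks (21 CD-1 and 20 WT mice), 9 collagen genes were called, 5 higher and 4 lower, where 17.2% of all genes were called. Col5a2 (0.31), Col3a1 (0.38), Col20a1 (0.33) and Col5a1 (0.26) were again higher and Col8a2 (-0.38) and Col6a1 (-0.23) lower, and these were other mice than those on air. Col4a6 (0.38) was called higher and Col14a1 (-0.40) and Col26a1 (-0.20) lower on styrene but not on air, and whether strain differences depend on dose gave no call among the collagen genes by the test of CD-1 minus WT styrene effects. On air, where 17.4% of all genes were called, 5 of 18 folding genes were lower and 1 higher in CD-1 mice (Serpinh1 -0.54, Colgalt1 -0.40), and 3 of 14 fibroblast markers were higher and 1 lower (Fn1 0.47, Mfap5 -0.66). Of 9 alveolar macrophage markers 4 were higher, and of 7 mesothelial markers 2 were lower (Upk1b -1.80).

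**Figure D5:**
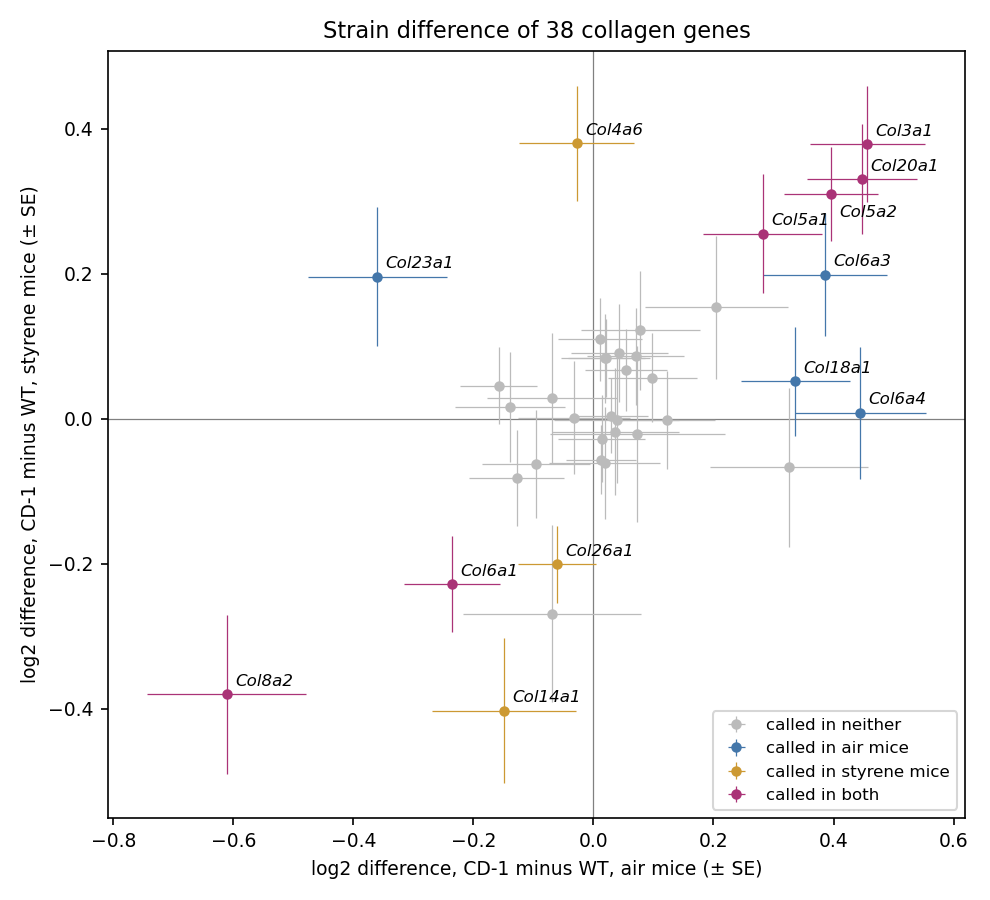
Log2 difference between CD-1 and WT mice on air (horizontal axis) against that on styrene (vertical axis) for the 38 tested collagen genes, with bars for 1 SE and colours for the dose in which a gene was called. Col3a1 (0.46 and 0.38) and Col5a2 (0.40 and 0.31) lie at the upper right and Col8a2 (-0.61 and -0.38) at the lower left.

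Among C57Bl/6 mice on air no collagen gene was called by limma between KO and WT (0 collagen genes and 839 of all genes at an unadjusted p under 0.05, 0.319% of all genes called) or between TG and KO mice (8 and 873, 0.344%). On styrene 2 were called between KO and WT mice (2.14% of all genes), with Col23a1 at 0.32 (limma adjusted p = 0.029) and Col6a1 at -0.21 (limma adjusted p = 0.0424), of which the second lost its call in 23 of 39 fits that left out 1 mouse each and the first in 3. Between TG and KO mice on styrene Col1a1 was called, at 0.32 (limma adjusted p = 0.0447, 0.478% of all genes), a call that was lost in 16 of 32 fits that left out 1 mouse each.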

How the data were processed

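RNA of 150 mouse lungs was measured on Affymetrix HT MG-430 PM arrays. The deposited values are log2 expression after RMA, made with Partek per the submitters' processing notes; their versions are not among the labels used here. RMA takes out differences in overall level between arrays, so the values are relative, and the number of arrays limits the precision.

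Of 45037 probe sets, 28898 had 1 gene in the platform annotation, 551 had several and 15588 were unnamed; symbols of 28689 were updated by Entrez number. A model with 31 group means and a term for plate 2 was fitted with limma 3.58.1 (lmFit and eBayes, R 4.3.3) over 15695 genes, with Benjamini-Hochberg adjustment and a threshold of 0.05. The filter level was 2.99 to 3.19. In simulated data with 200 genes changed among 15695, the comparison of 78 with 26 weeks on air recovered 36% of genes changed by 0.25, 86% of those changed by 0.5 and 100% of those changed by 1 on the log2 scale. The simulated noise was independent between genes, and far fewer genes were changed than the 52.7% called in the data. These shares therefore do not give the recovery in the data themselves. Each array is 1 mouse per the labels.

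Alternatives were the filter, the mean of all probe sets, plate terms, a replicate block, centred arrays, strains alone, the within-group axis, tumour labels and leaving out each mouse of groups of 2 to 5; mice of larger groups were not left out, so CD-1 at 104 weeks has no such fit. The collagen genes and lists were chosen with earlier results of these data known. Values by mouse are given for Col1a1, Col3a1, Col4a1, Col4a3 and Col6a1, and ranges over all arrays for Col1a2 and Col15a1. Values by mouse or ranges are also given for up to 5 further collagen genes with the smallest p in the comparison of each family with most calls. Up to 4 genes of each other list are named by smallest p. Promoter windows are from RefSeq.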

Additional observations from a re-analysis of the deposited data

Results flagged for a closer look

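Of 243 sets of 4 to 10 mice of a group, for 9 collagen genes, 12 held a mouse that stood apart from the rest by Dixon's criterion at 95%, where chance gives about 1 in 20. On the log2 scale these were Col1a1 in KO air 104w replicate 4 (5.52), Col1a2 in WT air 104w replicate 4 (2.94), Col3a1 in WT styrene 26w replicate 3 (10.69) and Col4a1 in CD-1 air 52w replicate 3 (10.75). Col4a3 stood apart in KO air 78w replicate 1 (8.91), KO styrene 78w replicate 5 (7.85) and CD-1 air 104w replicate 3 (8.02). Col5a2 did so in WT styrene 78w replicate 2 (8.03) and CD-1 styrene 104w replicate 4 (8.94), Col6a1 in TG air 78w replicate 1 (8.40), Col8a1 in TG air 26w replicate 2 (5.69) and Col15a1 in TG styrene 104w replicate 4 (3.47).

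At 104 weeks dose and plate cannot be told apart. There the styrene effect in TG mice differed from the mean of WT, KO and CD-1 mice for 17 of 38 collagen genes. This was by limma's test of that difference, which called 46.8% of all genes. With the place on the within-group axis as a covariate 2 collagen genes and 1.62% of all genes were called. It was higher for Col4a3 (1.31) and Col4a4 (0.74), both lower on styrene in the other mice. It was lower for the fibrillar Col5a1 (-0.57), Col1a1 (-0.52), Col5a3 (-0.48) and Col11a1 (-0.26), for the fibril-associated Col16a1 (-0.57), Col22a1 (-0.52), Col20a1 (-0.41), Col12a1 (-0.35) and Col9a3 (-0.30), and for Col6a1 (-0.51) and Col6a2 (-0.40). It was also lower for Col8a2 (-0.58), Col18a1 (-0.47), Col4a2 (-0.43) and Col15a1 (-0.36). Col12a1, Col11a1 and Col22a1 were above the filter level in 3, 13 and 55 of 150 arrays, so their levels are close to background.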

How the results depend on the processing

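Of 541 counts of called collagen genes under alternatives, 472 stayed within 1.5 times the reported count and 69 did not; of 1796 values of single genes 1567 kept direction and call, 214 lost the call and 15 reversed. The causes were not tested, except that a stricter filter tests fewer genes. The stricter filter gave 8 (78 minus 52 weeks, air), 4 (52 minus 26, styrene) and 2 (TG minus KO, styrene). The mean of all probe sets gave 11 (52 minus 26, styrene), 1 (TG minus KO, air), 1 (CD-1 at 26 weeks) and 1 (CD-1, mean to 78), and reversed Col3a1 (0.049) and Col5a2 (0.20) at 78 minus 52 weeks on air and Col5a2 (0.0066) at 78 minus 26 on styrene. C57Bl/6 alone gave 2 (WT at 52 weeks) and 2 (TG minus KO, styrene), and CD-1 alone 2 (CD-1, 78 minus 26, air). No plate term gave 0 (WT at 52 weeks), 11 (TG at 78), 7 (TG, mean to 78), 14 (78 minus 26, styrene) and 1 (KO minus WT, styrene). Plate 1 alone gave 1 (CD-1 at 26), 5 (WT at 52), 1 (TG at 52), 1 (CD-1 at 78), 4 (52 minus 26, air), 7 and 10 (78 minus 26 in TG and CD-1).

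A plate 4 term with 2 KO arrays on plate 3 gave 0 at 104 weeks in WT, KO and CD-1 and 0 between KO and WT and TG and KO on styrene, and reversed Col11a1 (-0.0084), Col4a4 (0.095) and Col5a1 (-0.042) in CD-1 mice. With 2 TG arrays there it gave 1, 0 and 3 at 104 weeks and 0 for TG minus KO on styrene. In each placement the term rests on those 2 arrays and the rest of their group, so it cannot tell plate from dose. Without tumour-labelled mice the counts were 2 (WT at 52), 9 (CD-1 at 104), 7 (CD-1, 78 minus 26) and 2 (TG minus KO, styrene), and Col5a1 at 104 weeks in CD-1 mice was -0.021. The within-group axis as a covariate gave 3 (WT at 52), 1 (TG at 52), 9 (TG at 78), 8 (TG, mean to 78), 1 (CD-1, mean to 78), 9 (CD-1, 78 minus 26), 5 (78 minus 26, styrene), 5 (KO minus WT, styrene) and 4 (TG minus KO, styrene). Centred arrays gave 0 (WT at 52), 4 (52 minus 26, air), 27, 9 and 18 (78 minus 26 on air in the mean, TG and CD-1), 22 (78 minus 52), 13 and 18 (52 and 78 minus 26, styrene) and 2 (TG minus KO, styrene).

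The place on the axis, added after the data were seen, gave 3 (WT at 52), 0, 0 and 3 (WT, KO and CD-1 at 104), 1 (CD-1, mean to 78), 8 and 2 (78 minus 26 on air, mean and KO), 3 (78 minus 52), 5 (78 minus 26, styrene), 1 and 0 (KO minus WT and TG minus KO, styrene). It reversed Col6a2 (-0.0037) and Col8a1 (0.14) in WT, Col8a1 (0.12) in KO, and Col4a3 (0.094), Col4a4 (0.062), Col5a1 (-0.097) and Col6a2 (-0.0099) in CD-1 mice at 104 weeks, and Col4a3 (-0.0018) at 78 minus 52. Without the 3 arrays farthest along the axis, also added later, the counts were 2 (WT at 52), 7 (CD-1, 78 minus 26), 1 and 0 (KO minus WT and TG minus KO, styrene).

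Leaving out 1 mouse, in groups of at most 5 only, gave 3 to 11 (78 minus 26, styrene), 0 to 4 (KO minus WT, styrene), 0 to 0 (WT at 52), 8 to 17 (78 minus 52), 0 to 3 (TG, mean to 78), 1 to 2 (52 minus 26, air), 0 to 3 (TG minus KO, styrene), 1 to 8 and 2 to 7 (78 minus 26 on air in KO and CD-1), 0 to 4 (TG at 78) and 5 to 13 (KO at 104, 5 of 11 mice). CD-1 at 104 weeks was not run. Replicate numbers were shared by number alone: every same-number correlation was over 0.1 in 1 of 15 comparisons, with means from -0.164 to 0.41. The replicate block gave 0 for TG minus KO on styrene and kept the other counts within 1.5 times.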
